A study of Mus musculus with 48 samples.

Results

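The 10 genes described here mark a keratin-rich transitional state of the alveolar epithelium: Krt8, Krt18, Krt19, Krt7, Cldn4, Sfn, Lgals3, Nupr1, Clu and Sprr1a. They were taken by Ensembl identifier from a count table of 42548 mouse genes, of which 31722 had a count in any library, and all 10 were expressed highly enough to be tested in every comparison. In the injured lung, alveolar type 2 cells divide and turn into the flat type 1 cells that carry gas exchange. On the way they can pass through a state with a raised content of simple-epithelium keratins, tight junction and stress proteins, which is known to accumulate in lungs after bleomycin and in fibrotic lungs. None of the 10 genes is limited to that state: several keratins and Clu are also made by airway cells, and Lgals3 is abundant in macrophages.

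Mice received saline or bleomycin, a DNA-damaging drug that injures the lung and causes fibrosis. Bleomycin mice were left as controls or were treated with KIRA8, a small-molecule kinase inhibitor of the endoplasmic reticulum stress sensor IRE1α, or with 3G9, an antibody against the integrin αvβ6, which activates TGFβ on epithelium. There were 6 saline control mice (2 female, 4 male), 9 bleomycin control mice (3 female, 6 male), 5 bleomycin mice given KIRA8 (2 female, 3 male) and 4 given 3G9 (1 female, 3 male). The assay was RiboTag, in which an HA-tagged ribosomal protein is made in chosen cells and RNA bound to it is recovered with an anti-HA antibody. Each mouse gave 1 epithelial and 1 whole lung library, 48 in all, so every group had the same number of libraries in both compartments. The mice fall into 3 batches by label. Saline mice were in S135 (3) and S151 (3), bleomycin controls in S061 (3), S135 (2) and S151 (4), KIRA8 mice in S061 (3) and S135 (2), and the 4 given 3G9 in S151. The control treatment was labelled Vehicle in S061 and S135 and Axum8 in S151. The sources used here do not give the promoter that drives the tag, the strain, the age of the mice or the time after bleomycin. The labels name the same anti-HA source and protocol for both compartments, so how whole lung libraries were prepared differently is unknown, and a difference between compartments cannot be told apart from one in preparation.

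Positions are those of RefSeq on GRCm38.p6. Keratins are intermediate filament proteins that pair as a type I and a type II chain. Krt8 (ENSMUSG00000049382, chr15:101996711-102004342, minus strand) is the type II chain of simple epithelia, and its partner Krt18 (ENSMUSG00000023043, chr15:102028216-102032026, plus strand) lies 23873 bases away. Krt7 (ENSMUSG00000023039, chr15:101412403-101427806, plus strand) is a further type II chain on the same chromosome, and Krt19 (ENSMUSG00000020911, chr11:100140810-100145926) is a type I chain. Cldn4 (ENSMUSG00000047501, chr5:134945123-134946934, minus strand) encodes a claudin of tight junctions. Sfn (ENSMUSG00000047281, chr4:133600556-133602168, minus strand) encodes stratifin, a cell cycle inhibitor induced by DNA damage. Sprr1a (ENSMUSG00000050359, chr3:92483954-92485881, minus strand) encodes a small proline-rich precursor of the cornified envelope, a protein of squamous differentiation. Lgals3 (ENSMUSG00000050335, chr14:47373860-47386167, plus strand) encodes galectin-3, a sugar-binding lectin. Clu (ENSMUSG00000022037, chr14:65968483-65981548) encodes clusterin, a secreted chaperone, and Nupr1 (ENSMUSG00000030717, chr7:126623246-126625470, minus strand) a small nuclear stress protein. The mouse genome also holds a Krt8 pseudogene, and the sources used here do not say how reads shared with it were counted.

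The promoters of 3 genes are shown: Sprr1a and Cldn4, which both hold a pair of AP-1 motifs, and Krt8, which holds none. The promoters of Krt18, Krt7, Sfn, Lgals3 and Nupr1 hold none either. AP-1 is a dimer of Fos and Jun proteins that is active in injured and squamous epithelium. Each line gives the 250 bases before the RefSeq start of the gene, 5′ to 3′ on the gene's own strand, which is the minus strand of GRCm38.p6 for all 3 genes. Capitals mark TGACTCA or, read on the other strand, TGAGTCA. The windows are chr3:92485882-92486131, chr5:134946935-134947184 and chr15:102004343-102004592.
Sprr1a: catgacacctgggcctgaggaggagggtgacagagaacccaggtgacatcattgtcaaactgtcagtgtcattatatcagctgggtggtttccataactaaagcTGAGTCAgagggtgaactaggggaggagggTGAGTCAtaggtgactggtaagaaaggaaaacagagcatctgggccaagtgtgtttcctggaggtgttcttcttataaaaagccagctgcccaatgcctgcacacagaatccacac
Cldn4: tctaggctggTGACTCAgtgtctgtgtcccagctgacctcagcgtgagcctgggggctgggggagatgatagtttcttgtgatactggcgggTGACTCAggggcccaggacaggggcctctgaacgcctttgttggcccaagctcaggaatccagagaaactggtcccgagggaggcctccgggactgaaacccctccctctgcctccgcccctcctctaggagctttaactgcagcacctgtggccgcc
Krt8: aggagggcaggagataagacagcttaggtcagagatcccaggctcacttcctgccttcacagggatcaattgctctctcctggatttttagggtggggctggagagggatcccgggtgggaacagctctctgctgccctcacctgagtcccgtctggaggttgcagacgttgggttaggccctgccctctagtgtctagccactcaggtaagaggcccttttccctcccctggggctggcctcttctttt
The Sprr1a motifs start 146 and 116 bases before the gene start, and those of Cldn4 start 240 and 158 bases before it. A search of both strands from 250 bases before to 50 bases after the start found TGACTCA in 2 of the 8 members with a promoter sequence, Sprr1a and Cldn4. Of 32817 mouse promoters of the same length, 5.2% held the motif and 0.222% held 2 or more copies. GGAATG, the motif of the TEAD factors, was in 0 of the 8 and in 14.7% of all promoters. The motifs were chosen after the sequences were seen, and a match describes the letters only, not a site in use. A link between the motif and the response to bleomycin was not tested. In epithelium the log2 fold changes of the genes with the motif were 4.80 for Sprr1a and 1.13 for Cldn4. Those of the genes without it were 1.54 for Sfn, 0.88 for Lgals3, 0.78 for Krt18, 0.67 for Krt8, 0.60 for Krt7 and -0.24 for Nupr1.

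Total counts per library were 21790283 to 51797377 in S061, 7163613 to 20468041 in S135 and 24751240 to 36945995 in S151. Together the 10 genes took 0.137% to 0.648% of the counts of an epithelial library and 0.0665% to 0.293% of those of a whole lung library. A set of 146 genes, none of them a member, was defined as high in S061 with a median near 0 over the other batches, and took 6.01% to 12.7% of the counts of S061 epithelial libraries. In S135 bleomycin control mouse 149 it took 0.0530% of the epithelial and 0.846% of the whole lung counts, against 0.00278% to 0.00717% and 0.00586% to 0.0438% in the other libraries of that batch. Levels are given as CPM, the counts scaled to the total of the library with no other correction, and fold changes come from a fit with TMM scaling and a term for batch, so that the ratio of CPM and the fitted fold change can differ. In bulk libraries, a lower level can come from fewer cells of a type or from less RNA per cell, and these cannot be told apart.

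Levels depended on the batch, and by gene. In saline epithelium, Krt8 averaged 195 CPM in S151 and 21.2 CPM in S135, a ratio of 9.22. The same ratio was 5.28 for Cldn4 and 5.19 for Nupr1, 2.25 for Krt18, 2.19 for Krt19 and 2.15 for Sfn, 1.98 for Sprr1a, 1.33 for Krt7 and 1.19 for Lgals3, and 0.559 for Clu. In bleomycin control epithelium, Sfn, Clu and Lgals3 were 2.92, 2.86 and 2.06 times as high in S061 as in S151, whereas Krt8 was at 0.538 of its S151 level. Krt8 was the gene with the widest gap in whole lung too, at 22.6 times its S135 level in S151 among bleomycin controls. Arms are therefore set side by side within batches below.

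**Figure D1:**
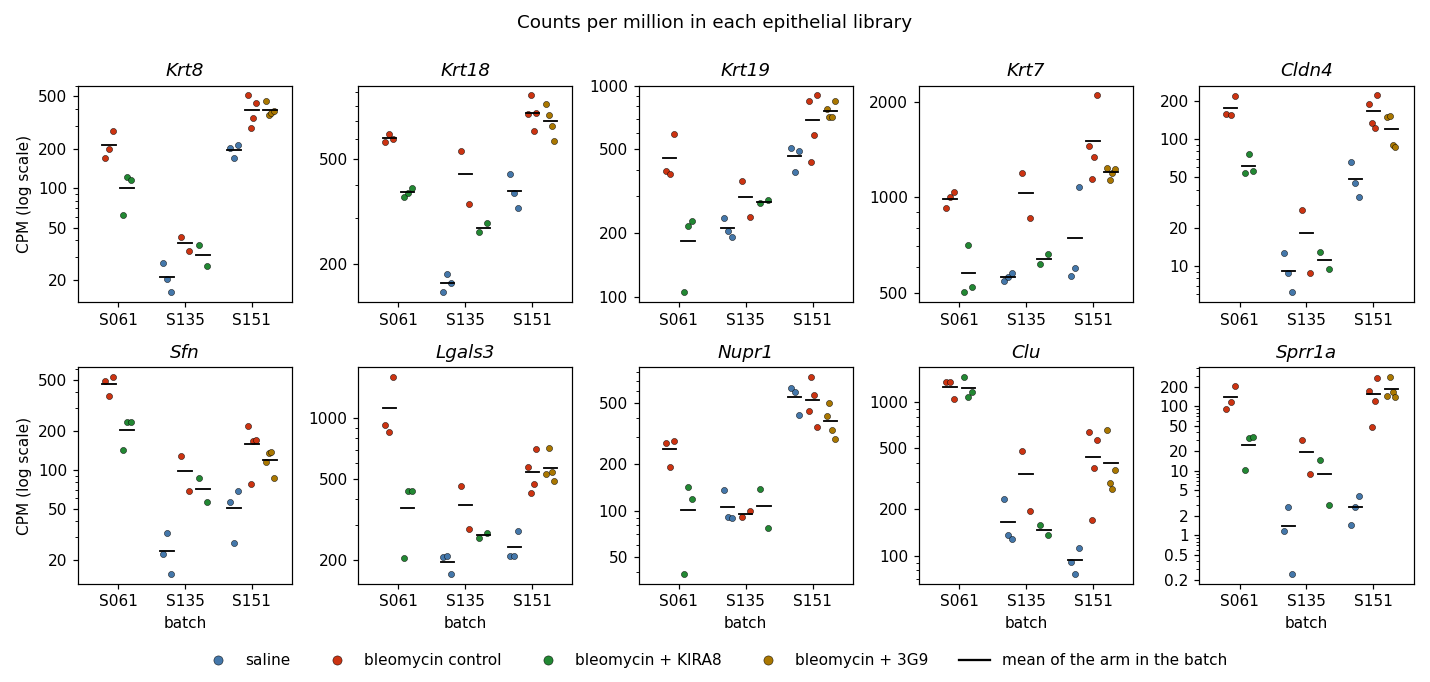
Level of the 10 genes in each of the 24 epithelial libraries (CPM, log axis), by batch; each point is 1 mouse, coloured by group, and each bar is the mean of a group in a batch. Sprr1a lies between 0.251 and 4.13 CPM in the 6 saline libraries and between 8.83 and 278 CPM in the 9 bleomycin control libraries, and the level of Krt8 differs more between batches than between groups.

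After bleomycin 8 of the 10 genes rose in epithelium, and none fell. The squamous gene Sprr1a rose most, 27.9-fold, followed by Sfn and Cldn4. Among the keratins Krt8, Krt18 and Krt7 rose by 1.51-fold to 1.71-fold, and Krt19 did not pass the test. Lgals3 and Clu rose, and Nupr1 did not pass the test. Over all 17291 genes tested in epithelium, 8.72% were called in either direction at an adjusted p under 0.05 (edgeR quasi-likelihood test, Benjamini-Hochberg), 787 higher and 721 lower. The median log2 fold change was 0.83 over the 10 genes and 0 over all genes.

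Krt8 stood at 27.1, 20.4 and 16.1 CPM in the 3 saline and at 42.6 and 33.4 CPM in the 2 bleomycin libraries of batch S135. In S151 the saline libraries held 203, 168 and 213 CPM and the bleomycin controls 510, 288, 342 and 446 CPM. The groups did not overlap in either batch. The fitted log2 fold change was 0.67 ± 0.16 (SE; n = 9 against 6; edgeR adjusted p = 0.00781), at 0.66 within S135 and 0.57 within S151. Its partner Krt18 stood at 156, 184 and 169 CPM in saline and at 539.9 and 338 CPM after bleomycin in S135. In S151 Krt18 moved from 442, 373 and 327 CPM to 744, 878, 642 and 753 CPM, again without overlap. The fit for Krt18 gave 0.78 ± 0.14 (edgeR adjusted p = 0.000691). Krt7 ranged from 544 to 577 CPM in the saline and stood at 1196 and 859.6 CPM in the bleomycin libraries of S135. In S151 Krt7 held 566, 598 and 1073 CPM in saline and 1137 to 2095 CPM after bleomycin. The log2 fold change of Krt7 was 0.60 ± 0.13 (edgeR adjusted p = 0.00446). Krt19 stood at 192 to 238 CPM in saline and at 239 and 356 CPM after bleomycin in S135, without overlap, but its S151 bleomycin libraries, 434 to 902 CPM, overlapped the saline ones, 393 to 509 CPM. Its log2 fold change was 0.32 ± 0.19 (edgeR adjusted p = 0.334), with a 95% interval from -0.05 to 0.70.

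Sprr1a was close to the limit of counting in saline epithelium, with 313 counts over the 6 libraries. Its saline levels were 1.18, 2.75 and 0.251 CPM in S135 and 1.44, 2.72 and 4.13 CPM in S151. After bleomycin it reached 30.5 and 8.83 CPM in S135 and 175, 48.04, 124 and 278 CPM in S151, and in S061, which holds no saline mouse, 91.5, 118 and 207 CPM. Every bleomycin control library lay above every saline library. The log2 fold change was 4.80 ± 0.62 (edgeR adjusted p = 5.88e-05), at 5.36 within S151 (adjusted p = 0.000278) and 3.56 within S135, where 2 libraries stood against 3 and the gene did not pass the test (adjusted p = 0.257). Sfn rose from 15.6 to 32.4 CPM in the saline to 129 and 67.9 CPM after bleomycin in S135, and from 56.5, 27.1 and 68.0 CPM to 219, 78.1, 167 and 169 CPM in S151. For Sfn the log2 fold change was 1.54 ± 0.25 (edgeR adjusted p = 0.000312). Cldn4 had 1 bleomycin library, mouse 149 of S135, at 8.77 CPM, inside the saline range of 6.21 to 12.6 CPM, while the other one of that batch had 27.7 CPM. In S151 Cldn4 held 66.1, 44.8 and 34.9 CPM in saline and 187, 133, 122 and 221 CPM after bleomycin. The log2 fold change of Cldn4 was 1.13 ± 0.23 (edgeR adjusted p = 0.00281).

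Lgals3 kept a narrow saline range, 172 to 279 CPM over both batches. It stood at 466 and 284 CPM after bleomycin in S135, at 576, 428, 473 and 705 CPM in S151, and at 922, 853 and 1596 CPM in S061. Its groups did not overlap in either batch with saline mice, and the log2 fold change was 0.88 ± 0.19 (edgeR adjusted p = 0.00391). Clu moved from 90.2, 75.9 and 113 CPM to 633, 171, 373 and 561 CPM in S151, but in S135 bleomycin mouse 149, at 196 CPM, lay below saline mouse 146, at 234 CPM. Its log2 fold change of 1.10 ± 0.31 passed the test (edgeR adjusted p = 0.0263) and did so in 11 of 15 fits that left out 1 mouse. The call was lost without bleomycin control mouse 148 or without saline mouse 207, 221 or 230, with an adjusted p of up to 0.0992, and also with no filter on low counts (1.14, adjusted p = 0.0632). Nupr1 spanned 89.7 to 135.4 CPM in saline and stood at 90.3 and 99.5 CPM after bleomycin in S135. In S151 it ranged from 421 to 630 CPM in saline and from 352 to 741 CPM after bleomycin. The fit for Nupr1 gave -0.24 ± 0.29 (edgeR adjusted p = 0.687).

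Within each batch 9 of the 10 genes had a positive log2 fold change. With 2 against 3 libraries in S135, Krt18, Krt7, Sfn and Lgals3 passed the test, 4 of the 10 genes where 2.29% of all genes did. With 4 against 3 in S151, Cldn4, Lgals3, Clu and Sprr1a passed, where 3.55% of all genes did. Every bleomycin control library lay above every saline library of its batch, in both S135 and S151, for 6 genes: Krt8, Krt18, Krt7, Sfn, Lgals3 and Sprr1a. Of all genes tested in epithelium, 8.35% met that condition. Scaling by library size alone moved the median of all genes from 0 to 0.37 (log2) in this comparison. The median of the 10 genes was then 1.21, which is 0.84 above that of all genes, and Krt19 also passed the test, at 0.72, where 20.9% of all genes were called. Nupr1 was at 0.13 under that scaling, with the opposite sign to the TMM fit.

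In whole lung 7 of the 10 genes rose after bleomycin, and none fell. Sprr1a had the smallest p of all 19345 genes tested there. Cldn4, Sfn, Lgals3, Krt18, Clu and Krt7 rose as well, while Krt8, Krt19 and Nupr1 did not pass the test. Of all whole lung genes, 10.1% were called in either direction. The median log2 fold change was 0.71 over the 10 genes and -0.01 over all genes.

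**Figure D2:**
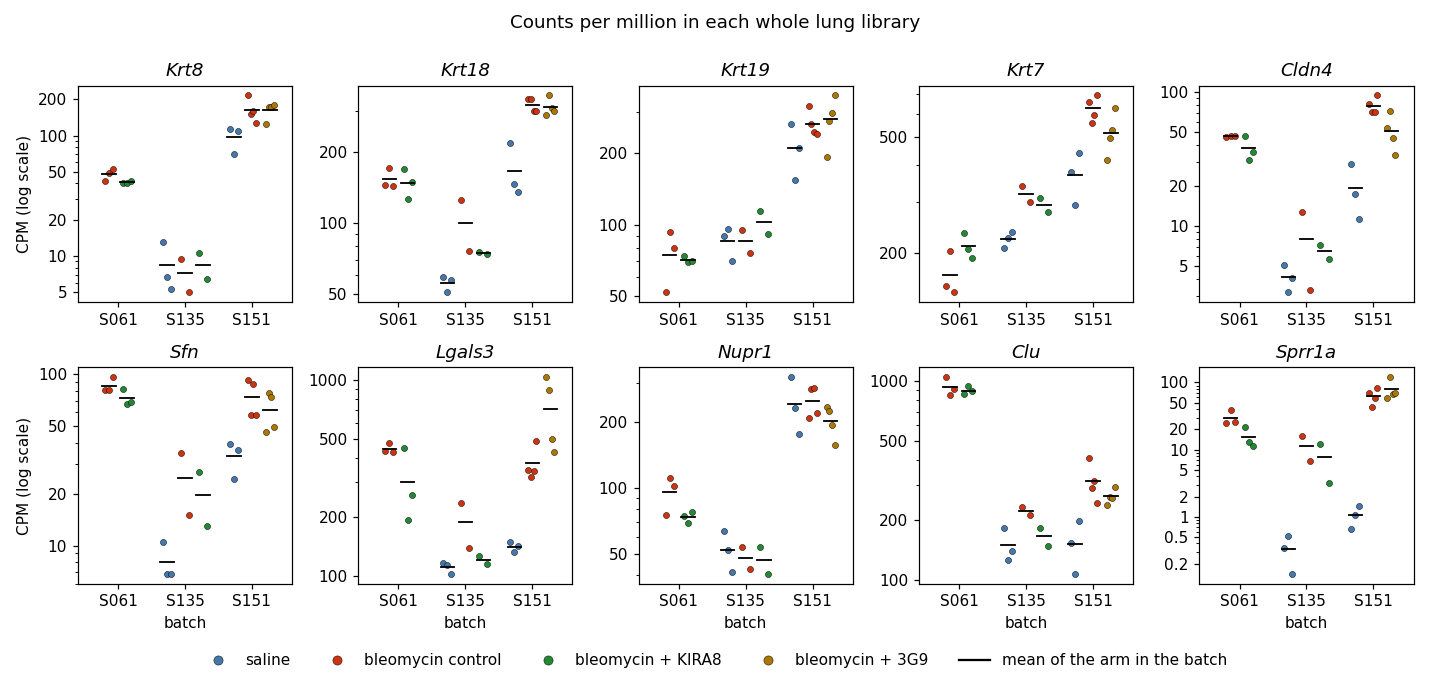
Level of the 10 genes in each of the 24 whole lung libraries (CPM, log axis), by batch; each point is 1 mouse, coloured by group, and each bar is the mean of a group in a batch. Sprr1a lies between 0.141 and 1.46 CPM in saline and between 6.79 and 82.4 CPM in bleomycin control libraries, and Lgals3 has its highest levels, 1034 and 884 CPM, in mice given 3G9.

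Sprr1a had 124 counts over the 6 saline whole lung libraries. It stood at 0.348, 0.520 and 0.141 CPM in saline and at 16.2 and 6.79 CPM after bleomycin in S135, and at 0.654, 1.05 and 1.46 CPM against 70.9, 43.1, 59.3 and 82.4 CPM in S151. The log2 fold change was 5.62 ± 0.39 (49.3-fold; n = 9 against 6; edgeR adjusted p = 3.46e-08), and the gene passed the test within each batch, at 5.02 in S135 and 5.75 in S151. Cldn4 rose from 29.1, 17.3 and 11.3 CPM to 80.7, 70.3, 71.0 and 94.4 CPM in S151. In S135 its bleomycin libraries stood at 12.7 and 3.32 CPM against 3.21 to 5.14 CPM in saline and overlapped them. The fit for Cldn4 gave 1.48 ± 0.27 (edgeR adjusted p = 0.00192). Sfn had a log2 fold change of 1.24 ± 0.20 (edgeR adjusted p = 0.00042), with 6.83 to 10.5 CPM in saline and 34.6 and 15.0 CPM after bleomycin in S135, and 24.4 to 39.3 CPM against 57.6 to 92.7 CPM in S151.

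Lgals3 rose from 103 to 117 CPM in the saline to 237 and 139 CPM in the bleomycin libraries of S135, and from 133 to 149 CPM to 322 to 488 CPM in S151. Lgals3 had a fitted log2 fold change of 0.99 ± 0.20 (edgeR adjusted p = 0.00326). Clu rose by 0.68 ± 0.14 on the log2 scale (edgeR adjusted p = 0.00324). Among the keratins, Krt18 had a log2 fold change of 0.73 ± 0.10 (edgeR adjusted p = 0.000112), with 0.79 within S135 and 0.77 within S151. Krt7 followed with 0.48 ± 0.11 (edgeR adjusted p = 0.00715). Krt8 had opposite signs in the batches. In S135 it stood at 13.1, 6.68 and 5.28 CPM in saline and at 9.46 and 4.98 CPM after bleomycin, a log2 fold change of -0.27, and in S151 at 113, 70.1 and 109 CPM against 216, 152, 159 and 127 CPM, a log2 fold change of 0.60. The Krt8 fit over both was 0.31 ± 0.20 (edgeR adjusted p = 0.348), with a 95% interval from -0.08 to 0.71. Krt19 was at 0.14 ± 0.14 (edgeR adjusted p = 0.577) and Nupr1 at -0.09 ± 0.14 (edgeR adjusted p = 0.75).

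The 7 whole lung calls held in each of the 15 fits that left out 1 mouse. Within batches, 3 genes passed in S135, where 1.42% of all genes did, and 6 in S151, where 2.73% did. The limma voom test called 8 members and 15.5% of all genes, with Krt8 as the added one (0.54, adjusted p = 0.0085). In both batches every bleomycin control library lay above every saline library for 6 genes, namely Krt18, Krt7, Sfn, Lgals3, Clu and Sprr1a, a condition met by 5.96% of all whole lung genes.

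**Figure D3:**
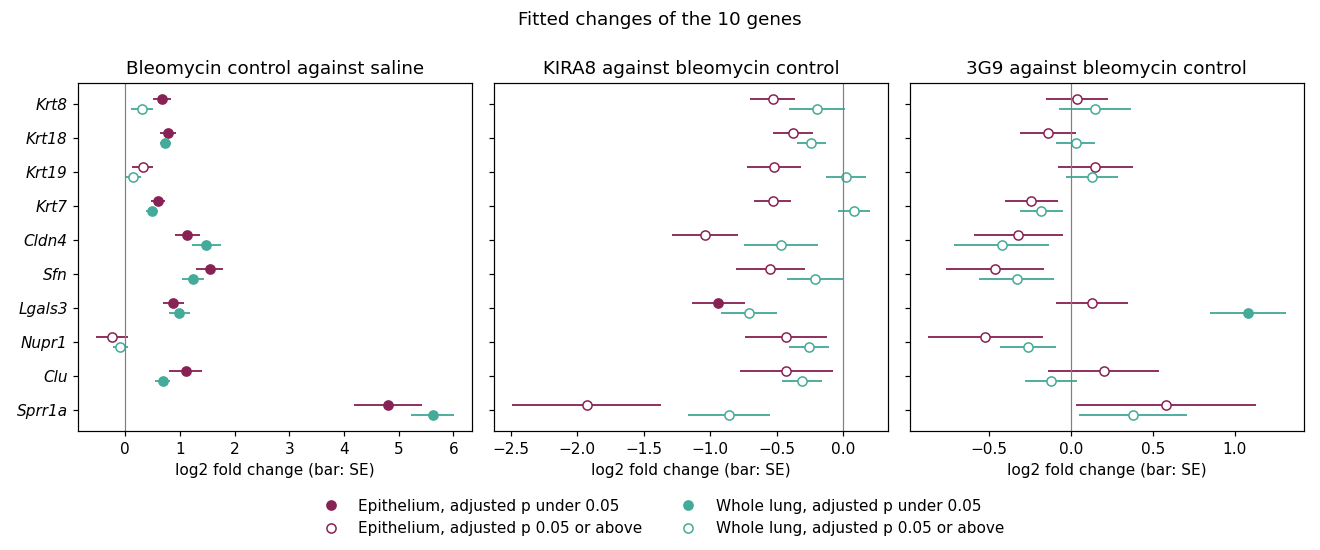
Fitted log2 fold change (points) and its SE (lines) of each gene in epithelium and in whole lung, for bleomycin control against saline, KIRA8 against bleomycin control and 3G9 against bleomycin control; filled points have an adjusted p under 0.05. In the first panel 8 epithelial and 7 whole lung points are filled, in the second Lgals3 in epithelium alone, and in the third Lgals3 in whole lung alone.

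KIRA8 was compared with bleomycin control to ask how inhibition of IRE1α bears on the injured epithelium. In epithelium all 10 genes had a negative log2 fold change, from -0.38 for Krt18 to -1.93 for Sprr1a, and 1 of them passed the test. That gene was Lgals3, which fell by 0.94 ± 0.20 on the log2 scale, a 1.91-fold lower level (n = 5 against 9; edgeR adjusted p = 0.0445). Of the 9 controls 4 were in S151, a batch with no KIRA8 mouse, and entered this comparison only through the terms for arm and batch. Of all epithelial genes 0.26% were called, 15 higher and 30 lower. The median log2 fold change was -0.53 over the 10 genes and 0.02 over all genes, and 8 of the 10 genes and 1981 of the 17291 genes had an unadjusted p under 0.05.

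In S061 Lgals3 stood at 922, 853 and 1596 CPM in controls and at 205, 438 and 440.1 CPM with KIRA8, a log2 fold change of -1.49 (adjusted p = 0.0586). In S135 it stood at 466 and 284 CPM in controls and at 257 and 273 CPM with KIRA8, a log2 fold change of -0.38 (adjusted p = 0.783). The groups did not overlap in either batch, with a gap in S135 of 284 to 273 CPM. The call for Lgals3 held in 2 of the 14 fits that left out 1 mouse, those without control mouse 149 or 206. The adjusted p rose to 0.156 without control mouse 45, which had the highest Lgals3 level. Without KIRA8 mouse 20 the log2 fold change was -0.76 (edgeR adjusted p = 0.127). In the epithelial library of that mouse the 146 genes high in S061 took 12.7% of the counts, the most of any library.

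Cldn4 was at 158, 155 and 217 CPM in controls and at 53.6, 75.6 and 56.0 CPM with KIRA8 in S061, and at 27.7 and 8.77 CPM against 12.9 and 9.49 CPM in S135. Its log2 fold change was -1.04 ± 0.25 (edgeR adjusted p = 0.0855). Within S061 it was -1.36 and, alone of the 10 genes, passed the test (adjusted p = 0.0128), where 0.878% of all genes did, and without control mouse 149 the fit over all libraries passed as well (adjusted p = 0.0115). Sprr1a stood at 91.5, 118 and 207 CPM in controls and at 10.3, 32.8 and 33.1 CPM with KIRA8 in S061, without overlap, but in S135 at 30.5 and 8.83 CPM against 15.0 and 2.93 CPM. The fit for Sprr1a gave -1.93 ± 0.56 (edgeR adjusted p = 0.177). Krt8 had 169.9, 199.5 and 271 CPM in controls and 62.3, 122 and 115 CPM with KIRA8 in S061. In S135 Krt8 had 42.6 and 33.4 CPM against 36.7 and 25.4 CPM, with overlap. The Krt8 fit gave -0.53 ± 0.17 (edgeR adjusted p = 0.206). Krt7 was at -0.53 ± 0.14 (edgeR adjusted p = 0.125), with 927 to 1037 CPM in controls against 501 to 709 CPM with KIRA8 in S061 and 1196 and 859.6 CPM against 617 and 662 CPM in S135. Krt19, Sfn, Nupr1 and Clu had log2 fold changes of -0.52, -0.55, -0.43 and -0.43, each with an adjusted p between 0.308 and 0.689.

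In S061 every control library lay above every KIRA8 library for 9 of the 10 genes, Clu being the exception with 1038 to 1346 CPM against 1079 to 1449 CPM, and 23.3% of all epithelial genes met the condition there. In both S061 and S135 this held for Krt18, Krt7 and Lgals3, 3 of 10, where 6.38% of all epithelial genes met the condition. The median log2 fold change of the 10 genes was -1.09 within S061 and -0.47 within S135. Krt19 and Nupr1 were positive within S135, at 0.04 and 0.28. Krt18 had similar values in both batches, -0.52 in S061 and -0.56 in S135, as had Krt7, at -0.62 and -0.57, while Clu was at 0.15 and -1.07. The fit over all batches gave -0.38 for Krt18 and -0.53 for Krt7, a smaller drop than within either batch. In S061 epithelium the batch-limited genes took 10.8% ± 1.76 (SD, n = 3) of the counts with KIRA8 and 7.72% ± 1.48 (SD, n = 3) in controls. With that share as a term, Lgals3 was at -0.43 (edgeR adjusted p = 0.425), and 0 members passed. With S061 left out, Lgals3 was at -0.40 and 0 members passed. The main fit called 0.26% of all genes, and the share called in these further fits is not given here. A count of 0 members in them is therefore not a result about the members alone.

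The count of calls also moved with the method, from 1 by edgeR to 4 by DESeq2 (Lgals3, Krt7, Cldn4 and Sprr1a), which called 1.41% of all genes, and 8 by limma voom, which called 13% of all genes. Scaling by library size alone moved the median of all epithelial genes to -0.21 in this comparison and that of the 10 genes to -0.76, which is -0.55 relative to it, and 4 of the 10 genes and 0.931% of all genes passed.

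In whole lung, 0 of the 10 genes passed the edgeR test for KIRA8, where 0.527% of all genes did. Of the 10 genes 3 had an unadjusted p under 0.05, as had 2977 of the 19345 genes, and DESeq2 called 1 member (Lgals3) and 3.62% of all genes, and limma voom 2 members (Lgals3 and Sprr1a) and 5.62% of all genes. Lgals3 had a log2 fold change of -0.71 ± 0.21 (edgeR adjusted p = 0.109), which passed without KIRA8 mouse 20 (-0.91, adjusted p = 0.0395). Within single batches Lgals3 was at -0.62 in S061 and -0.59 in S135. Sprr1a had a log2 fold change of -0.86 ± 0.31 (edgeR adjusted p = 0.186). In S061 Sprr1a stood at 25.2, 38.5 and 25.7 CPM in controls and at 21.5, 13.03 and 11.4 CPM with KIRA8, and in S135 at 16.2 and 6.79 CPM against 12.3 and 3.20 CPM. Krt8 was at -0.20, Krt19 at 0.02 and Krt7 at 0.08. The median of the 10 genes was -0.25 and that of all genes -0.01. In both batches every control library lay above every KIRA8 library for 0 of the 10 genes, and for 1.72% of all genes.

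3G9 was compared with bleomycin control to ask how blocking TGFβ activation bears on the same lungs, and all 3G9 mice were in S151. In epithelium 0 of the 10 genes passed the edgeR test, 0 had an unadjusted p under 0.05, and 0% of all genes were called, with 566 genes at an unadjusted p under 0.05. DESeq2 called 36 genes and 0 members. Krt8 stood at 459.7, 359, 377 and 384 CPM with 3G9 and at 510, 288, 342 and 446 CPM in S151 controls. Its log2 fold change was 0.04 ± 0.19, with a 95% interval from -0.33 to 0.41. Sprr1a stood at 145, 287, 167 and 142 CPM against 175, 48.04, 124 and 278 CPM, with an interval from -0.50 to 1.66. The intervals of Krt18 (-0.48 to 0.19) and Krt7 (-0.55 to 0.07) were narrower than those of Sfn (-1.04 to 0.12) and Clu (-0.47 to 0.87). Such intervals leave room for changes of moderate size, and the data do not show that 3G9 left the genes as they were.

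In whole lung 1 gene, Lgals3, rose with 3G9, where 0.196% of all genes were called. It stood at 1034, 884, 502 and 431 CPM with 3G9 and at 347, 322, 345 and 488 CPM in S151 controls, with 1 control library, mouse 225, above the lowest 3G9 library. Its log2 fold change was 1.08 ± 0.23 (n = 4 against 9; edgeR adjusted p = 0.0441), but the call held in 4 of 13 fits that left out 1 mouse. Without 3G9 mouse 218 it was 0.83 (adjusted p = 0.339), and within S151 alone 0.96 (adjusted p = 0.416). Mouse 218 had the highest Lgals3 and the lowest Krt8 and Krt19 levels of the 3G9 whole lung libraries, and its whole lung column carries a suffix in its name that no source explains. Markers of macrophages could not be read here, and their part in the Lgals3 level was not tested. The median log2 fold change of the 10 genes was -0.04 in whole lung and -0.05 in epithelium, where Lgals3 itself was at 0.13 (95% interval -0.31 to 0.57).

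Treated mice were also set against saline, a comparison that shares its saline and treated mice with those above, so that its values are given side by side only. In epithelium of KIRA8 mice 1 gene, Sprr1a, was above saline, at 2.87 ± 0.66 (edgeR adjusted p = 0.0401), where 1.06% of all genes were called. That call held in 3 of 11 fits without 1 mouse, and was weakest without KIRA8 mouse 154 (2.20, adjusted p = 0.18). In bleomycin controls the same log2 fold change was 4.80, and in 3G9 mice 5.38 ± 0.71 (edgeR adjusted p = 0.000148). Lgals3 was at -0.06 against saline with KIRA8, at 0.88 in controls and at 1.0 with 3G9, and Krt8 at 0.14, 0.67 and 0.71. Cldn4 was at 0.09 with KIRA8, 1.13 in controls and 0.80 with 3G9, and Sfn at 0.98, 1.54 and 1.08. KIRA8 and saline mice share S135 alone, and within it 0 members passed for KIRA8 against saline. There Sprr1a was at 2.6 (edgeR adjusted p = 0.479), Krt8 at 0.49 (adjusted p = 0.476) and Lgals3 at 0.35 (adjusted p = 0.433), so the sign of Lgals3 turned. Lgals3 was at 0.36 with S061 left out and at 0.31 when the batch-limited share was a term in the fit. Clu moved from 0.67 to -0.24 within S135, and Krt19 from -0.19 to 0.34. In epithelium of 3G9 mice 5 genes were above saline, Krt8, Krt18, Sfn, Lgals3 and Sprr1a, where 4.24% of all genes were called. The number ran from 1 to 6 when single mice were left out, with 1 without 3G9 mouse 219. The Krt8 call was lost in 6 of these fits, that of Krt18 in 5, that of Sfn in 4 and that of Lgals3 in 1.

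In whole lung of KIRA8 mice Sprr1a alone was above saline, at 4.77 ± 0.44 (edgeR adjusted p = 5.46e-06), with 0.258% of all genes called. Krt18, Krt7 and Sfn were at 0.50, 0.56 and 1.03 there (edgeR adjusted p = 0.111, 0.0872 and 0.087). In whole lung of 3G9 mice 6 genes were above saline, with 10.4% of all genes called. These were Sprr1a at 6.01 ± 0.43, Lgals3 at 2.07 ± 0.25, Cldn4 at 1.06 ± 0.32, Sfn at 0.91 ± 0.24, Krt18 at 0.77 ± 0.13 and Clu at 0.56 ± 0.17. When single mice were left out, the Clu call was lost in 7 fits, that of Cldn4 in 6 and that of Sfn in 2, the latter without saline mouse 221 or 3G9 mouse 219. Lgals3 was at 0.27 with KIRA8 and 0.99 in controls against the same saline mice.

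The difference of each effect between epithelium and whole lung was tested itself, with the mouse as a block. For bleomycin 0 of the 10 genes passed the edgeR test, where 0.343% of all genes did. Of the 10 genes 1, Cldn4 at -0.35, had an unadjusted p under 0.05, as had 1985 of all 19808 genes, and DESeq2 called 0 members. Krt8, which passed in epithelium and not in whole lung, had a difference of 0.35 ± 0.17 (edgeR adjusted p = 0.514). For KIRA8 all 10 genes had a more negative log2 fold change in epithelium, 0 passed the edgeR test and 0.0505% of all genes did. The median difference was -0.39 over the 10 genes and 0.01 over all genes. Here 5 members and 2313 genes had an unadjusted p under 0.05, and DESeq2 called 2 members, Krt7 and Cldn4, and 1.71% of all genes. With S061 left out the difference was positive for 3 genes, Lgals3 at 0.39, Nupr1 at 0.34 and Krt18 at 0.06, and 0 members passed. Krt7 had a difference of -0.62 ± 0.14 (edgeR adjusted p = 0.0641), which passed without control mouse 206 (adjusted p = 0.0407), and Cldn4 one of -0.61 ± 0.18 (edgeR adjusted p = 0.144). For 3G9 0 members and 0% of all genes passed by edgeR or DESeq2, with 1 member and 448 genes at an unadjusted p under 0.05. That member was Lgals3, with a difference of -0.87 ± 0.32 (edgeR adjusted p = 1).

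In the TMM-scaled fit within mice, all 10 genes were called higher in the epithelial than in the whole lung libraries, in saline mice and in bleomycin controls alike. By CPM 9 of them were higher in every one of these mice, and Clu was not. The share of all genes that met this condition was not computed. In treated mice further genes were not always higher by CPM. Lgals3 was higher in 2 of 4 mice given 3G9 and in 4 of 5 given KIRA8. Among the 5 KIRA8 mice Nupr1 was higher in 4, Sprr1a in 3 and Clu in 3. Calls in either direction are the rule in this comparison, at 57.5% of all genes in saline and 60.8% in bleomycin control mice. The median log2 fold change of the 10 genes was 1.95 in saline mice, against -0.06 over all genes, and 2.01 in bleomycin controls, against 0. In saline mice Sprr1a was at 2.31, Krt18 at 2.17, Cldn4 at 2.06, Krt19 at 2.01, Krt8 at 1.99, Krt7 at 1.91, Nupr1 at 1.87, Sfn at 1.76 and Lgals3 at 1.53. Clu stood apart with 0.48 ± 0.12 (edgeR adjusted p = 0.00533). In bleomycin controls Krt19 was at 2.34, Krt8 at 2.30, Krt7 at 2.26 and Sfn at 2.20, with Lgals3 at 1.37 and Clu at 0.87 ± 0.19 (edgeR adjusted p = 0.00137) again the lowest.

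**Figure D4:**
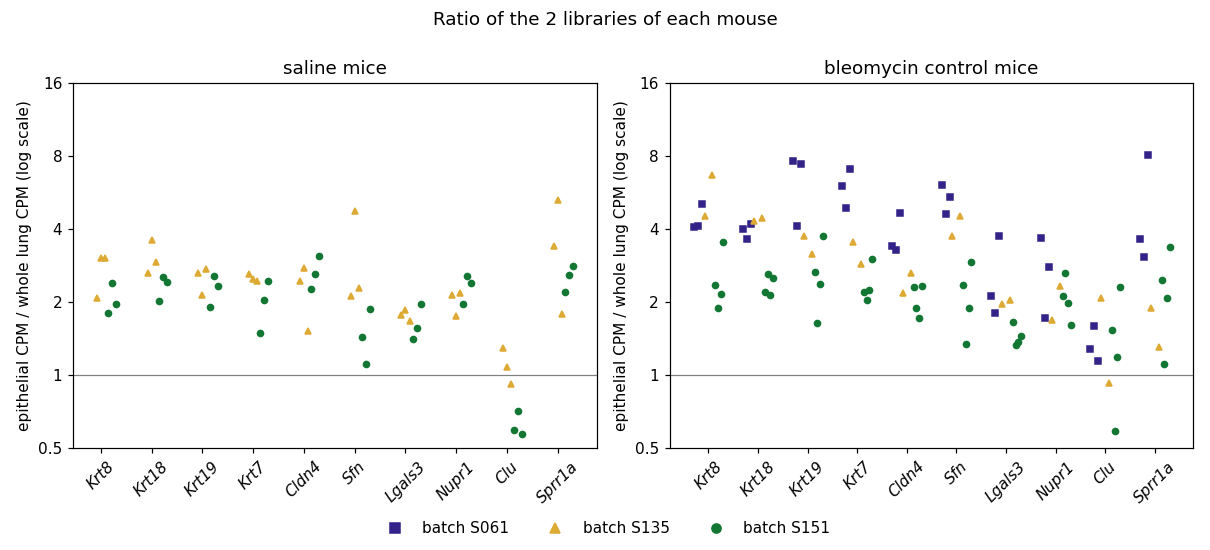
Ratio of the epithelial to the whole lung level (CPM in both, log axis) of each gene in each saline and bleomycin control mouse; marker shapes show the batch. Clu is above 1 in 2 of 6 saline and 7 of 9 bleomycin control mice, and the other genes are above 1 in all of them.

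As a plain ratio of CPM within a mouse, Krt8 was 1.80 to 3.05 times as high in the epithelial library in saline mice and 1.89 to 6.70 times as high in bleomycin controls. Krt7 ran from 1.49 to 2.602 in saline mice and, in bleomycin controls, from 2.87 to 3.52 in S135, from 2.04 to 3.02 in S151 and from 4.90 to 7.06 in S061, which holds no saline mouse. Sprr1a ran from 1.78 to 5.29 and from 1.11 to 8.06. For Clu the ratio was 0.573 to 0.71 in S151 saline mice and 0.923 to 1.29 in S135. Its sign in saline mice depended on scaling. By library size alone Clu was at -0.29 in saline mice (edgeR adjusted p = 0.168) and at 0.39 in bleomycin controls (edgeR adjusted p = 0.0869), called in neither. That scaling moved the median of all genes to -0.84 in saline mice and -0.49 in bleomycin controls, and the other 9 genes passed the test as higher under it in both. Of the 14885 genes tested in saline mice, 1150 were called higher and 8251 lower under that scaling. Of the 15624 tested in bleomycin controls, 1960 were called higher and 7477 lower. Relative to all genes the median of the 10 was then 2.02 and 2.01.

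How far the other 9 genes followed Krt8 from mouse to mouse was read from the 24 epithelial libraries, as the deviation of log2(CPM + 0.5) from the mean of the same arm and batch. These values are a description: the libraries share depth and composition, the median r with Krt8 over all 17290 other genes was 0.201, and 9 relations were computed. Krt19 was closest, with Pearson r = 0.867 and Spearman rho = 0.846, which ranked 28 among the 17290 genes. Without the 2 libraries farthest from the median of Krt8, those of mice 20 and 204, its r was 0.812. Lgals3 followed with r = 0.738 (rho = 0.718), Sprr1a with r = 0.72 (rho = 0.649), Sfn with r = 0.675 (rho = 0.67) and Cldn4 with r = 0.593 (rho = 0.59). Clu, Krt7 and Nupr1 were at r = 0.5, 0.453 and 0.387 (rho = 0.454, 0.422 and 0.282). Krt18, the filament partner of Krt8, was at r = 0.074 (rho = 0.034), rank 10791. With S061 left out, r was 0.52 for Lgals3, 0.854 for Clu and -0.067 for Nupr1, so the values of these 3 moved with the batches used. The 3 genes most like Krt8 by this measure were ENSMUSG00000001039 (r = 0.932), ENSMUSG00000031422 (r = 0.919) and ENSMUSG00000037070 (r = 0.913).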

How the data were processed

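The deposited file holds raw counts by Ensembl gene, not normalized. STAR 2.5.2b was used with GRCm38, per the submitters' processing notes; how reads were counted, strand included, the sources used here do not say. Per the labels, RNA came from anti-HA immunoprecipitation and libraries from the QuantSeq Forward kit, which reads the 3′ end of transcripts, with the same protocol for both compartments. Columns were matched by mouse number and compartment letter (E epithelial, I whole lung, as read here). The members and lists were chosen with earlier results of these data known.

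Counts were tested in R 4.3.3 with the quasi-likelihood test of edgeR 4.0.16 (TMM, filterByExpr on arm, robust), with terms for arm and batch over the 24 libraries of a compartment. Calls have a Benjamini-Hochberg adjusted p under 0.05 over all genes tested. Interactions were fitted over all 48 libraries and compartments within mice, both with the mouse as replicate block. The mouse number in the labels gives the pairing: the deviations of the libraries of a mouse correlated with a median r of 0.266 over 16765 genes, over 0.1 in 24 of 24 mice. The SE is |log2 fold change| / √F, and 95% intervals use the normal value. The genes named are all 10 members and the 3 most like Krt8. Lists of cell type markers and of other transitional-state genes could not be applied, because the reference matched 0 of the table's identifiers to symbols. The labelled epithelium was therefore not checked against its markers. Alternatives were DESeq2 1.42.0, limma 3.58.1 (voom), RLE scaling, no filter, sex, the share of batch-limited genes (at least 50 CPM in every S061 library and a median under 0.5 CPM elsewhere), single batches, arms alone, leaving out each mouse and, chosen after seeing the data, library size scaling. Each mouse is a separate animal. The tests were checked on simulated data. Among genes left unchanged, 6 were called for bleomycin in epithelium, 10 for KIRA8 and 4 for 3G9. For the interactions of bleomycin and KIRA8 these false calls were 3 and 7. At a log2 change of 1, 51.7% of the changed genes were recovered for bleomycin in epithelium, 43.8% for KIRA8 and 38.2% for 3G9. At a log2 change of 2 these were 79.4%, 72.9% and 70.1%. The interaction data were simulated with no effect shared by the libraries of a mouse, so they lack the pairing of the real data. For the interactions of bleomycin and KIRA8, 34.1% and 28.6% were recovered at a log2 change of 1. A gene that did not pass may therefore still have changed.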

Additional observations from a re-analysis of the deposited data

Results flagged for a closer look

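Among 80 groups of 4 to 9 libraries, 6 had a highest or lowest library set apart from its neighbours. In groups of like, independent libraries chance gives about 1 in 20. Krt7 was at 1073 CPM in the epithelial library of saline mouse 230, with the next of 6 at 598 CPM, and at 2095 CPM in that of bleomycin control mouse 225, with the next of 9 at 1452 CPM. Lgals3 was at 279 CPM in the epithelial library of saline mouse 230, with the next at 211 CPM, and at 1596 CPM in that of bleomycin control mouse 45, with the next at 922 CPM. Among the 4 whole lung libraries of 3G9 mice, Krt8 was lowest in mouse 218 at 124 CPM, with the next at 172 CPM, and Sprr1a was highest in mouse 219 at 121 CPM, with the next at 69.2 CPM. The groups span batches except for 3G9.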

How the results depend on the processing

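The number of members called moved as follows. For KIRA8 against control in epithelium (1), it was 4 with DESeq2, 8 with limma voom, 4 with library size scaling, 0 without S061, within S135, with the batch-limited share as a term and with the arms alone, and 0 to 2 without single mice. For KIRA8 with bleomycin against saline in epithelium (1), it was 2 with DESeq2 and limma voom, 0 with no filter, without S061, within S135, with sex and with the arms alone, and 0 to 1 without single mice. For bleomycin in epithelium (8) it was 4 within S135 and 4 within S151, and 7 to 8 without single mice. For 3G9 with bleomycin against saline in epithelium (5) it was 8 with library size scaling, 3 within S151 and 1 to 6 without single mice. In whole lung, KIRA8 against control (0) gave 1 with DESeq2, 2 with limma voom and 0 to 1 without single mice, and KIRA8 with bleomycin against saline (1) gave 4 with DESeq2 and limma voom, 0 within S135 and with the arms alone, and 1 to 2 without single mice. For 3G9 against control in whole lung (1) it was 0 with library size scaling, no filter, without S061, within S151, with sex and with the arms alone, and 0 to 1 without single mice. Bleomycin in whole lung (7) gave 3 within S135, and 3G9 with bleomycin against saline there (6) gave 3 to 6 without single mice. The KIRA8 interaction (0) gave 2 with DESeq2, 1 with library size scaling, 1 with no filter and 0 to 1 without single mice. Clu changed sign between compartments in saline mice, to -0.29, with library size scaling, and was not called there (edgeR adjusted p = 0.168). A count of 0 members says nothing of the members where 0 genes in all were called. This was so within S135 for KIRA8 against control in epithelium. In whole lung it was so with the arms alone for KIRA8 against saline, and within S151 for 3G9 against control. It was also so there without KIRA8 mouse 32 for KIRA8 against control, where the main test called 102 genes. For 3G9 against control in epithelium it was so in the main test itself. For KIRA8 against saline in whole lung, DESeq2 called 357 genes in all where the main test called 50. In epithelium limma voom called 623 genes for that comparison, where the main test called 184. For 3G9 against saline in epithelium, library size scaling called 1335 genes higher and 28 lower, where the main test called 734 in all. A change in the number of members is therefore not by itself a result about the members. The cause of the moves in member counts was not tested, except that fits within 1 batch or with arms alone use fewer samples.

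Over all genes, calls ran from 0 to 2248 (45) for KIRA8 and from 338 to 3622 (1508) for bleomycin in epithelium. In whole lung they ran from 0 to 1088 (102) for KIRA8, from 227 to 2996 (1962) for bleomycin and from 0 to 331 (38) for 3G9. Against saline they ran from 16 to 623 (184) for KIRA8 and from 330 to 1499 (734) for 3G9 in epithelium, and from 0 to 357 (50) and from 732 to 4431 (2018) in whole lung. For 3G9 against control in epithelium they reached 36 (0). The bleomycin interaction ran to 269 (68) and that of KIRA8 from 1 to 339 (10). Without the replicate block the bleomycin interaction gave 9 genes instead of 68, and 0 members either way. With library size scaling 96.8% of epithelial bleomycin calls were higher (52.2% with TMM), 84.5% of whole lung ones (59.2%), 1.86% of epithelial KIRA8 calls (33.3%), and 12.2% and 20.8% of compartment calls in saline and bleomycin control mice (47.4% and 50.2%). Depth limits Sprr1a in saline mice most.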
